A study of Gossypium barbadense and Gossypium hirsutum with 4 samples.

Results

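The cotton array carries probe sets whose ID prefix names the species that supplied the transcript sequence they were designed on. Of the 24029 probe sets without the AFFX prefix of array controls, 105 start with GbaAffx, for Gossypium barbadense, or GarAffx, for Gossypium arboreum, and these were taken by prefix alone, 36 GbaAffx and 69 GarAffx. They were read in fibre at 11 days post-anthesis from untreated plants of VH8-4602, a Gossypium barbadense genotype, and of Guazuncho 2, a Gossypium hirsutum genotype, with 2 one-colour Affymetrix arrays each. All plants grew in soil in a glasshouse at 30 °C by day and 22 °C by night. The question was whether designs on barbadense sequence read higher in the barbadense line. Each species was thus represented by 1 line. Separate plants behind the replicates are not stated in the labels, and the p-values then cover only the spread of these samples, perhaps a technical one. No file gave the gene behind a probe set (0 of the 105 IDs matched a table of 74561 barbadense genes), so no fibre marker among them could be read, members are named by ID, and no sequence is shown. Replicate numbers 1 and 2 only name the arrays of a genotype and pair none across genotypes.

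A cotton fibre is a single cell that grows out of the seed coat, first lengthening with a thin primary wall and later filling with cellulose. Gossypium hirsutum and Gossypium barbadense are allotetraploids that each carry an A and a D subgenome, and barbadense is grown for its long, fine fibre. Gossypium arboreum is a diploid of the A genome, so its transcripts have close counterparts in the A subgenome of both tetraploids. In the naming used for these arrays, a plain _at suffix marks probes meant for 1 transcript, _s_at marks probes shared by several similar transcripts, and _x_at marks sets in which some probes also match unrelated transcripts. A signal can therefore differ between species through the amount of RNA or through the match of the probes, and these cannot be told apart here. Nor can fewer cells of a type and less RNA per cell in a bulk sample.

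Signals are log2 values made by the authors with GCRMA. The test took the 12603 probe sets with 2 or more of the 4 arrays above 4. For comparison, the highest of 74 negative controls read 3.64 and 3.46 in VH8-4602, against 3.23 and 3.33 in Guazuncho 2. With limma and a Benjamini-Hochberg adjusted p under 0.05 over all tested probe sets, 45.9% of them differed between the genotypes, 25.1% higher and 20.9% lower in VH8-4602. Every difference below is the log2 signal of VH8-4602 minus that of Guazuncho 2, and its median over the tested probe sets was 0.05. The 27 hybridization controls, targets spiked in at known amounts, had means of 11.25 and 11.24 in VH8-4602, against 10.85 and 11.05 in Guazuncho 2. Setting these controls equal lowers every difference by 0.29, and the median over the tested probe sets becomes -0.24, with 1557 higher and 4074 lower. Control probe sets for the 3′ and 5′ ends of named transcripts also moved with the genotype. The 3′ minus 5′ difference was 3.03 and 3.07 in VH8-4602, against 2.18 and 2.52 in Guazuncho 2, for the hirsutum actin control, and 4.87 and 5.04 in VH8-4602, against 3.62 and 4.62 in Guazuncho 2, for the hirsutum ss1 control. It was 1.94 and 1.80 in VH8-4602, against 1.36 and 1.79 in Guazuncho 2, for the hirsutum ubq11 control, and 4.50 and 3.98 in VH8-4602, against 2.78 and 3.34 in Guazuncho 2, for the raimondii actin control. All 4 were higher on both VH8-4602 arrays than on either Guazuncho 2 array, ubq11 by a small margin, and the part of this in the results below was not tested.

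By count of calls, barbadense designs were not more often higher than lower in the barbadense line. Of the 36 GbaAffx probe sets, 27 passed the filter, 3 of those were higher in VH8-4602, 5 were lower and 19 did not pass the test. The share called was 29.6%, against 45.9% of all tested probe sets. The 27 differences split into 13 above 0 and 14 below, where 54.6% of all tested probe sets were above 0. Their median was -0.03. The sign of this median was not stable: it was 0.034 without a filter, 0.014 with quantile normalization, and 0.00757, 0.0277 and 0.0195 without VH8-4602 replicate 1, VH8-4602 replicate 2 and Guazuncho 2 replicate 1. The median signal of these 27 probe sets was 10.81 and 10.76 on the VH8-4602 arrays, against 10.74 and 10.81 on the Guazuncho 2 arrays, so the genotypes overlapped. Both arrays of 1 genotype lay above both of the other in 18 of the 27, against 78.4% of all tested probe sets; VH8-4602 was above in 10 and below in 8, where all tested probe sets had 44.3% above and 34.1% below. These counts run over the members that passed a filter on signal and carry no test of their own. With 1 array left out, 1 genotype has a single array, and p-values and calls hold no spread of that genotype. The split of calls depended on single arrays and on the scale. It was 1 higher and 2 lower without VH8-4602 replicate 1, 5 higher and 3 lower without VH8-4602 replicate 2, 0 higher and 2 lower without Guazuncho 2 replicate 1, and 0 higher and 2 lower without Guazuncho 2 replicate 2. With each array centred on its median it was 1 higher and 5 lower, and with the hybridization controls set equal 0 higher and 7 lower.

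The widest difference among all 105 members was a barbadense design that was nearly dark in the barbadense line. GbaAffx.197.1.S1_s_at read 3.50 and 4.84 in VH8-4602, against 12.53 and 12.55 in Guazuncho 2, a difference of -8.37 (SE 0.45, limma adjusted p = 0.000513). Among the 12603 probe sets tested, 9 had a difference of this size or larger, this one included, all of them lower in VH8-4602. VH8-4602 replicate 1 lay under the highest negative control of its array and replicate 2 above it, so 1 of the 2 VH8-4602 arrays measured the probe set. Of the VH8-4602 arrays only replicate 2 was above the filter of 4, so the probe set was tested because of its signal in Guazuncho 2. With replicate 1 raised to that control, the mean log2 signal of the 2 VH8-4602 arrays gave a drop of at least 314.7-fold. The Guazuncho 2 arrays differed by 0.01 and those of VH8-4602 by 1.34. Without VH8-4602 replicate 1 the signal was 208-fold lower, with a difference of -7.70, and without VH8-4602 replicate 2 it was at least 477-fold lower against the highest negative control, with a measured difference of -9.04. The difference was -8.37 without Guazuncho 2 replicate 1 and -8.36 without Guazuncho 2 replicate 2.

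The other GbaAffx members past the test differed by at most 1.66-fold. Lower in VH8-4602 was GbaAffx.179.1.S1_at, with 8.79 and 8.93 in VH8-4602, against 9.46 and 9.74 in Guazuncho 2, a difference of -0.73 (SE 0.13, limma adjusted p = 0.0126). GbaAffx.183.1.S1_s_at read 11.30 and 11.46 in VH8-4602, against 11.90 and 11.83 in Guazuncho 2, a difference of -0.49 (SE 0.10, limma adjusted p = 0.0189). Both were lower on each VH8-4602 array than on either Guazuncho 2 array. A pair with the same ID number moved alike: GbaAffx.16.1.S1_s_at read 7.97 and 7.75 in VH8-4602, against 8.36 and 8.26 in Guazuncho 2, a difference of -0.45 (SE 0.12, limma adjusted p = 0.0356). GbaAffx.16.1.S1_at read 10.50 and 10.27 in VH8-4602, against 10.74 and 10.83 in Guazuncho 2, a difference of -0.40 (SE 0.12, limma adjusted p = 0.0483).

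Higher in VH8-4602 was GbaAffx.189.1.S1_s_at, with 10.94 and 10.76 in VH8-4602, against 10.34 and 10.40 in Guazuncho 2, a difference of 0.48 (SE 0.10, limma adjusted p = 0.0215). GbaAffx.213.1.S1_s_at read 10.14 and 10.05 in VH8-4602, against 9.78 and 9.67 in Guazuncho 2, a difference of 0.36 (SE 0.10, limma adjusted p = 0.0361). GbaAffx.18.1.S1_x_at read 10.71 and 10.69 in VH8-4602, against 10.28 and 10.44 in Guazuncho 2, a difference of 0.34 (SE 0.10, limma adjusted p = 0.0487). In all 3 the genotypes did not overlap, and none was called with the hybridization controls set equal (limma adjusted p = 0.346, 0.742 and 0.799). Most of these small calls were lost when arrays were left out. Leaving out any 1 array ended the calls of GbaAffx.213.1.S1_s_at, GbaAffx.18.1.S1_x_at and GbaAffx.16.1.S1_at (limma adjusted p from 0.0502 to 0.175). Those of GbaAffx.183.1.S1_s_at and GbaAffx.189.1.S1_s_at ended without VH8-4602 replicate 1 and without either Guazuncho 2 array, that of GbaAffx.16.1.S1_s_at ended without VH8-4602 replicate 2 and without either Guazuncho 2 array, and that of GbaAffx.179.1.S1_at ended without VH8-4602 replicate 1 (limma adjusted p up to 0.0783, 0.0854, 0.129 and 0.0645).

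The largest positive differences of the barbadense designs came from probe sets on which the VH8-4602 replicates parted, and none of these passed the test. All 3 probe sets with the ID number 198 read highest on VH8-4602 replicate 1. GbaAffx.198.1.S1_at read 6.74 and 5.19 in VH8-4602, against 4.43 and 5.04 in Guazuncho 2, a difference of 1.23 (SE 0.56, limma adjusted p = 0.139). GbaAffx.198.1.S1_s_at read 11.36 and 10.27 in VH8-4602, against 9.57 and 9.98 in Guazuncho 2, a difference of 1.04 (SE 0.39, limma adjusted p = 0.0918). GbaAffx.198.1.S1_x_at read 6.87 and 5.84 in VH8-4602, against 5.10 and 5.55 in Guazuncho 2, a difference of 1.04 (SE 0.38, limma adjusted p = 0.0864). Each of the 3 lay above Guazuncho 2 on both VH8-4602 arrays, yet on replicate 2 by only 0.15 to 0.29 over the higher Guazuncho 2 array. The differences were 1.55 to 2.01 without VH8-4602 replicate 2 and 0.46 to 0.52 without VH8-4602 replicate 1. Either fit leaves VH8-4602 with 1 array and so cannot test these differences against its spread.

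On the ID number 201 it was VH8-4602 replicate 2 that stood apart. GbaAffx.201.1.S1_s_at read 5.29 and 7.79 in VH8-4602, against 5.12 and 5.54 in Guazuncho 2, a difference of 1.21 (SE 0.84, limma adjusted p = 0.294). VH8-4602 replicate 1 lay between the Guazuncho 2 arrays. The difference was 2.47 without VH8-4602 replicate 1 (limma adjusted p = 0.0108) and -0.04 without VH8-4602 replicate 2 (limma adjusted p = 0.912). Its companion GbaAffx.201.1.S1_at, which failed the filter, read 3.74 and 4.92 in VH8-4602, against 3.04 and 3.05 in Guazuncho 2, again highest on replicate 2.

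Distances of more than 1 between the VH8-4602 replicates were found in 5 of the 27 GbaAffx members (18.5%) and in 1 of the 53 tested GarAffx members, against 1.02% of all tested probe sets. They belong to 3 ID numbers, 197, 198 and 201, so they are fewer than 5 separate designs. Between the Guazuncho 2 replicates no member of either prefix differed by more than 1, against 0.801% of all tested probe sets. The median distance between replicates over the GbaAffx members was 0.20 in VH8-4602 and 0.09 in Guazuncho 2, against 0.12 in each genotype over all tested probe sets. This count was made after the values were seen and has no test, and whether plant material, RNA or hybridization differed between the VH8-4602 samples was not tested. Without the 5 members, 3 of the other 22 were higher and 4 lower in VH8-4602, with a median difference of -0.04 and a range of -0.73 to 0.48.

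Of the 19 GbaAffx members not called, 13 differed by less than 0.25. In 10 of the 19 the arrays did not overlap between genotypes (52.6%), against 60.1% of all tested probe sets not called. One of these was GbaAffx.186.1.S1_s_at, higher in VH8-4602 by 0.35 (SE 0.15, limma adjusted p = 0.131). GbaAffx.190.1.S1_x_at read 16.16 and 16.14 in VH8-4602, against 16.13 and 16.13 in Guazuncho 2, a difference of 0.02 (SE 0.08, limma adjusted p = 0.879). GbaAffx.6.1.S1_s_at read 15.49 and 15.49 in VH8-4602, against 15.37 and 15.33 in Guazuncho 2, a difference of 0.14 (SE 0.08, limma adjusted p = 0.237). These are the 2 GbaAffx probe sets with the highest mean signal, and GbaAffx.190.1.S1_x_at sits at the upper end of the arrays, whose highest values were 16.13 to 16.16, where a difference could be hidden. An _x_at set with no tested companion, GbaAffx.159.1.S1_x_at, read 6.97 and 6.46 in VH8-4602, against 6.84 and 6.96 in Guazuncho 2, a difference of -0.19 (SE 0.19, limma adjusted p = 0.474), with the genotypes overlapping.

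Arboreum designs differed between the species about as often as other probe sets and in both directions alike. Of the 69 GarAffx probe sets, 53 passed the filter, 13 of those were higher in VH8-4602, 12 were lower and 28 did not pass the test. The share called was 47.2%, against 45.9% of all tested probe sets, and the median difference was 0.02. There were 27 differences above 0 and 26 below, where 54.6% of all tested probe sets were above 0. Both arrays of 1 genotype lay above both of the other in 47 of the 53 (88.7%), against 78.4% of all tested probe sets. Differences of at least 1 in size were seen in 13 GarAffx members (24.5%) and in 5 GbaAffx members (18.5%), against 17.7% of all tested probe sets. One member passed the filter through VH8-4602 alone and therefore had to differ; without it 12 were higher and 12 lower of 52. With limma's moderation of variances left out, only the calls of GarAffx.11010.1.S1_s_at, GarAffx.13776.1.S1_s_at, GarAffx.24201.1.A1_s_at and GarAffx.28288.1.S1_s_at were kept. With the hybridization controls set equal, 8 GarAffx members were higher and 23 lower. Calls with 1 array left out, given next, hold no spread of the genotype that keeps 1 array. With 1 array left out at a time more of these calls lasted than of the barbadense designs, a contrast that was not tested: 17 of the 25, 9 higher and 8 lower, were called with any 1 array left out, or 68.0%, against 1 of the 8 GbaAffx calls and 57.2% of the calls over all tested probe sets. Without the member that passed through VH8-4602 alone it was 16 of 24, 8 higher and 8 lower.

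Among the arboreum designs, the largest drops in VH8-4602 came from a pair of probe sets with the same ID number. GarAffx.24670.1.S1_at read 7.30 and 6.69 in VH8-4602, against 9.75 and 9.81 in Guazuncho 2, a difference of -2.79 (SE 0.22, limma adjusted p = 0.00136), or 6.90-fold. GarAffx.24670.1.S1_s_at read 10.05 and 9.53 in VH8-4602, against 12.33 and 12.37 in Guazuncho 2, a difference of -2.56 (SE 0.19, limma adjusted p = 0.0012). In both, VH8-4602 replicate 2 was the lower array, and both VH8-4602 arrays lay more than 2 below either Guazuncho 2 array. GarAffx.29310.2.S1_s_at read 10.43 and 11.20 in VH8-4602, against 13.48 and 13.17 in Guazuncho 2, a difference of -2.51 (SE 0.29, limma adjusted p = 0.00336). GarAffx.38922.1.S1_s_at read 9.86 and 9.34 in VH8-4602, against 11.36 and 11.83 in Guazuncho 2, a difference of -1.99 (SE 0.25, limma adjusted p = 0.00421). All 4 read well above the negative controls in both genotypes, so the signal was measured on all 4 arrays. None of the 4 was called with limma's moderation left out.

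Smaller drops were seen over the whole range of signal. In VH8-4602, GarAffx.14011.1.S1_s_at, GarAffx.5818.1.S1_s_at and GarAffx.24390.1.S1_s_at read not far above the highest negative controls, 3.64 and 3.46. GarAffx.14011.1.S1_s_at read 4.31 and 4.19 in VH8-4602, against 5.47 and 5.96 in Guazuncho 2, a difference of -1.46 (SE 0.19, limma adjusted p = 0.00467). GarAffx.30221.1.S1_s_at read 13.16 and 13.37 in VH8-4602, against 14.46 and 14.45 in Guazuncho 2, a difference of -1.19 (SE 0.11, limma adjusted p = 0.0019). The genotypes were apart by more than 1 in each of these 2 sets. GarAffx.5818.1.S1_s_at read 4.05 and 4.51 in VH8-4602, against 5.15 and 5.12 in Guazuncho 2, a difference of -0.86 (SE 0.17, limma adjusted p = 0.0173). GarAffx.23059.1.S1_s_at read 11.69 and 11.91 in VH8-4602, against 12.63 and 12.54 in Guazuncho 2, a difference of -0.78 (SE 0.11, limma adjusted p = 0.00688). GarAffx.24201.1.A1_s_at read 11.23 and 11.24 in VH8-4602, against 11.90 and 11.84 in Guazuncho 2, a difference of -0.63 (SE 0.09, limma adjusted p = 0.00564). It was the only called member whose ID carries the letter A in place of S. GarAffx.24390.1.S1_s_at read 4.76 and 4.64 in VH8-4602, against 5.11 and 5.26 in Guazuncho 2, a difference of -0.49 (SE 0.11, limma adjusted p = 0.0208). The 2 further lower members differed by -0.45 and -0.39. Calls ended for GarAffx.5818.1.S1_s_at without either Guazuncho 2 array, for GarAffx.24390.1.S1_s_at and the member at -0.45 without either VH8-4602 array and without Guazuncho 2 replicate 2, and for the member at -0.39 without any 1 array (limma adjusted p up to 0.0642, 0.0884, 0.0704 and 0.148).

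Among the arboreum designs that were higher in VH8-4602, the widest gap was near background. GarAffx.37327.1.S1_at read 5.47 and 5.99 in VH8-4602, against 3.69 and 4.00 in Guazuncho 2, a difference of 1.89 (SE 0.22, limma adjusted p = 0.00341). Guazuncho 2 lay above its negative controls but under the filter, so this is the member that passed through VH8-4602 alone. GarAffx.37202.1.S1_x_at read 11.01 and 10.52 in VH8-4602, against 9.11 and 9.02 in Guazuncho 2, a difference of 1.70 (SE 0.18, limma adjusted p = 0.0029), or 3.25-fold. GarAffx.38925.1.S1_s_at read 7.58 and 7.71 in VH8-4602, against 5.84 and 6.28 in Guazuncho 2, a difference of 1.58 (SE 0.17, limma adjusted p = 0.00304). GarAffx.13408.1.S1_s_at read 7.57 and 7.79 in VH8-4602, against 6.23 and 6.47 in Guazuncho 2, a difference of 1.33 (SE 0.13, limma adjusted p = 0.00248). The lower VH8-4602 array of each of these 3 stood more than 1 above the higher Guazuncho 2 array. GarAffx.11010.1.S1_s_at read 8.14 and 7.97 in VH8-4602, against 6.94 and 7.03 in Guazuncho 2, a difference of 1.07 (SE 0.10, limma adjusted p = 0.0022).

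Differences of about 1 or less followed in 6 more members. The pair with the ID number 37324 moved together: GarAffx.37324.1.S1_s_at read 8.14 and 8.14 in VH8-4602, against 7.28 and 6.92 in Guazuncho 2, a difference of 1.04 (SE 0.15, limma adjusted p = 0.00625). GarAffx.37324.1.S1_at read 7.86 and 7.73 in VH8-4602, against 7.16 and 6.73 in Guazuncho 2, a difference of 0.85 (SE 0.17, limma adjusted p = 0.0168). In both, Guazuncho 2 replicate 2 was the lowest array. GarAffx.17438.1.S1_s_at read 11.33 and 11.47 in VH8-4602, against 10.41 and 10.53 in Guazuncho 2, a difference of 0.93 (SE 0.10, limma adjusted p = 0.00321). GarAffx.13776.1.S1_s_at read 9.40 and 9.37 in VH8-4602, against 8.56 and 8.54 in Guazuncho 2, a difference of 0.83 (SE 0.08, limma adjusted p = 0.00245). GarAffx.28288.1.S1_s_at read 15.16 and 15.22 in VH8-4602, against 14.55 and 14.61 in Guazuncho 2, a difference of 0.61 (SE 0.09, limma adjusted p = 0.00675). The last stood among the bright members and lost its call with the hybridization controls set equal (limma adjusted p = 0.112). GarAffx.19281.1.S1_x_at read 12.19 and 12.04 in VH8-4602, against 11.66 and 11.68 in Guazuncho 2, a difference of 0.44 (SE 0.10, limma adjusted p = 0.022). The 2 further higher members, GarAffx.20486.1.S1_s_at and GarAffx.21624.1.S1_s_at, differed by 0.52 and 0.36. With the hybridization controls set equal the calls of these 3 and of GarAffx.37324.1.S1_at were lost (limma adjusted p = 0.454, 0.27, 0.756 and 0.072). Leaving out arrays ended the call of GarAffx.37324.1.S1_at without either VH8-4602 array, of GarAffx.19281.1.S1_x_at without VH8-4602 replicate 1 and without either Guazuncho 2 array, of GarAffx.20486.1.S1_s_at without VH8-4602 replicate 2 and without either Guazuncho 2 array, and of GarAffx.21624.1.S1_s_at without any 1 array (limma adjusted p up to 0.0827, 0.0826, 0.0808 and 0.146).

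Of the 28 GarAffx members not called, 21 differed by less than 0.25. The largest difference among the 28 was that of GarAffx.37329.1.S1_at, which read 3.66 and 4.68 in VH8-4602, against 5.54 and 4.92 in Guazuncho 2, a difference of -1.06 (SE 0.40, limma adjusted p = 0.0934). The replicates of both genotypes were far apart here, and without VH8-4602 replicate 2 the difference was -1.57. Of the VH8-4602 arrays only replicate 2 was above the filter of 4, so this set was tested because of its signal in Guazuncho 2. Next came GarAffx.19281.1.S1_at, which read 11.47 and 11.15 in VH8-4602, against 10.89 and 10.89 in Guazuncho 2, a difference of 0.42 (SE 0.13, limma adjusted p = 0.0611). Without VH8-4602 replicate 2 the difference was 0.58. The members with the highest mean signal were a pair with the ID number 24961. They lay near the highest values of the arrays, 16.13 to 16.16, where a difference could be hidden. GarAffx.24961.1.S1_s_at read 15.87 and 15.88 in VH8-4602, against 16.00 and 16.02 in Guazuncho 2, and GarAffx.24961.2.S1_s_at read 15.80 and 15.83 in VH8-4602, against 15.94 and 15.97 in Guazuncho 2. Both differed by -0.14 (SE 0.08, limma adjusted p = 0.238 and 0.237), and in both each VH8-4602 array lay below each Guazuncho 2 array. In all, 22 of the 28 had arrays that did not overlap between genotypes (78.6%), against 60.1% of all tested probe sets not called.

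By ID suffix, calls ran in both directions among _s_at sets, and the 3 calls among the 7 tested _x_at sets were higher in VH8-4602. Over all tested _x_at sets 222 were higher and 195 lower, and of the 3 calls those of GbaAffx.18.1.S1_x_at and GarAffx.19281.1.S1_x_at were lost with the hybridization controls set equal (limma adjusted p = 0.799 and 0.454). Among GbaAffx, 0 of 6 tested _at sets were higher and 2 lower, 2 of 16 _s_at sets were higher and 3 lower, and 1 of 5 _x_at sets was higher and 0 lower. Among GarAffx, 2 of 6 _at sets were higher and 1 lower, 9 of 45 _s_at sets were higher and 11 lower, and both tested _x_at sets were higher. Of all tested probe sets, 46.5% of the _at, 45.9% of the _s_at and 42.6% of the _x_at sets were called. Median differences were -0.12 for _at, -0.04 for _s_at and 0.03 for _x_at in GbaAffx, and 0.31 for _at and -0.12 for _s_at in GarAffx, against 0.06, 0.04 and 0.04 over all tested sets of these suffixes. The _x_at sets, whose probes may read other transcripts, had 6 of 7 differences above 0 over both prefixes, against 54.3% of all tested _x_at sets, but the groups are small and 4 of the 7 share an ID number with another tested member. The plain _at barbadense designs, those meant for 1 transcript, had 2 of 6 differences above 0, against 55.1% of all tested _at sets. Among probe sets designed on sequence of Gossypium raimondii, a diploid of the D genome, 44.4% of the tested _s_at sets were called. The share was also 44.4% among arboreum _s_at sets, and it was 46.3% among hirsutum _s_at sets. The other suffixes did not match: 31.5% of the raimondii _at sets were called, against 3 of 6 arboreum ones. For _x_at sets it was 33.3% of the raimondii designs, against 2 of 2 arboreum ones. Over all suffixes 39.4% of the raimondii, 47.2% of the arboreum and 47.1% of the hirsutum designs were called. These comparisons were not tested, and the arboreum _at and _x_at groups are small.

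Some tested members share an ID number and may read the same transcript or close relatives, so they are not counted as separate designs. There were 5 such groups in GbaAffx with 13 members and 4 in GarAffx with 8. All 4 GarAffx groups and 3 of the 5 GbaAffx groups had differences of 1 sign. GbaAffx.175.1.S1_at read 6.99 and 6.74 in VH8-4602, against 7.05 and 7.11 in Guazuncho 2, and GbaAffx.175.1.S1_s_at read 14.89 and 14.79 in VH8-4602, against 14.90 and 14.94 in Guazuncho 2, differences of -0.21 and -0.08 (limma adjusted p = 0.204 and 0.506). On the ID number 18 the signs were mixed. GbaAffx.18.1.S1_at read 10.65 and 10.78 in VH8-4602, against 10.26 and 10.53 in Guazuncho 2, a difference of 0.32 (limma adjusted p = 0.108), close to the 0.34 of the called _x_at set. GbaAffx.18.1.S1_s_at, whose probes are shared by similar transcripts, read 12.50 and 12.52 in VH8-4602, against 12.58 and 12.66 in Guazuncho 2, a difference of -0.11 (limma adjusted p = 0.346). The ID number 2 was mixed around 0, with 10.25 and 10.23 in VH8-4602 against 10.47 and 10.08 in Guazuncho 2 for GbaAffx.2.1.S1_at, a difference of -0.03. GbaAffx.2.1.S1_s_at gave 11.46 and 11.26 in VH8-4602 against 11.02 and 11.27 in Guazuncho 2, and GbaAffx.2.1.S1_x_at gave 10.81 and 10.94 in VH8-4602 against 10.88 and 10.81 in Guazuncho 2, differences of 0.21 and 0.03, and the genotypes overlapped in all 3. Taking the brightest set of each ID number left 19 GbaAffx members, 2 higher and 4 lower, and 49 GarAffx members, 12 higher and 11 lower.

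The filter left 25 members untested, 9 GbaAffx and 16 GarAffx. Of these, 7 GbaAffx and 13 GarAffx sets read at or below the highest negative control on all 4 arrays. The share tested was 75.0% of GbaAffx and 76.8% of GarAffx, against 52.4% of all probe sets, 63.5% of the hirsutum designs and 26.1% of the raimondii designs. Sets with the letter A in the ID were tested less often by count: 0 of 2 GbaAffx and 3 of 11 GarAffx sets with an A were tested, against 27 of 34 and 50 of 58 with an S. Over the whole array 36.4% of sets with an A and 65.5% of those with an S were tested.

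Around the filter itself, the closest members inside were GbaAffx.198.1.S1_at and GbaAffx.201.1.S1_s_at, given above, and for GarAffx GarAffx.37329.1.S1_at and GarAffx.24390.1.S1_s_at, also given above. Just outside, next to GbaAffx.201.1.S1_at, was GbaAffx.200.1.S1_x_at, with 3.32 and 3.37 in VH8-4602, against 3.25 and 3.28 in Guazuncho 2. GarAffx.37325.1.S1_at read 3.45 and 3.42 in VH8-4602, against 3.91 and 3.41 in Guazuncho 2, and GarAffx.37326.1.A1_s_at read 3.40 and 3.12 in VH8-4602, against 3.52 and 3.40 in Guazuncho 2. These 3 sets lay near the negative controls, where a difference was not detectable.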

How the data were processed

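Total RNA of fibre at 11 days post-anthesis was labelled with biotin and hybridized to 4 arrays, 2 per genotype, per the labels' protocols. The deposited values are log2 signals per probe set, a scale inferred from their range, and were made by the authors with GCRMA, per the submitters' processing notes, which name no version. That method equalizes the arrays' distributions and compresses low signals. Precision is limited by the number of arrays.

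No value was rescaled for the results given. The 24132 probe sets include 103 controls with the AFFX prefix, which stayed out, and limma 3.58.1 (R 4.3.3) tested the 12603 with log2 above 4 on 2 or more arrays (lmFit and eBayes, 2 residual and 2.56 prior degrees of freedom, Benjamini-Hochberg adjusted p under 0.05), without covariates. The test was also run on values simulated from limma's own variance model, with few probe sets changed. Such a run checks the calculation and cannot show how well the model holds for these arrays. A negative control that read above log2 10 was left out of the 74 after its values were seen. Members and lists were chosen with earlier results of these data known. The rule named every called GbaAffx member, up to 10 called GarAffx members per direction, and in each prefix the 2 widest not called, the 2 brightest, every tested _x_at set, sets sharing an ID number and the 2 nearest the filter on each side; further members are named where counts were small. Gene lists stayed empty, as the IDs matched no gene table. Alternatives were other filters, scales, variance models, thresholds and each array left out.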

Additional observations from a re-analysis of the deposited data

Results flagged for a closer look

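Among the members left untested, 2 read above log2 4 on 1 array, and both did so on VH8-4602 replicate 2. GbaAffx.201.1.S1_at read 4.92 on that array, against 3.74 on the other VH8-4602 array and 3.04 and 3.05 in Guazuncho 2. GarAffx.37326.1.A1_x_at read 4.18 on that array, against 2.80 on the other VH8-4602 array and 2.81 and 2.63 in Guazuncho 2. The highest negative control of VH8-4602 replicate 2 was 3.46. With 1 array above the filter neither difference between the genotypes was tested.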

How the results depend on the processing

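No paired analysis was possible because the labels give the genotypes no common numbers; replicates 1 and 2 were numbered here. Over all tested probe sets 5791 were called, 3162 higher and 2629 lower, with 1875 when limma's moderation was left out, 3278 at an adjusted p under 0.01, and 4017 to 4598 with 1 array left out; setting the hybridization controls equal gave 1557 higher and 4074 lower. The 8 GbaAffx calls became 5 without a filter, 1 without moderation and 1 at an adjusted p under 0.01. Without moderation 6 GarAffx members were called, some of them not called in the main test. Of the 25 GarAffx calls, only those of GarAffx.11010.1.S1_s_at, GarAffx.13776.1.S1_s_at, GarAffx.24201.1.A1_s_at and GarAffx.28288.1.S1_s_at were kept without moderation. Leaving out 1 array kept 2 to 4 of the 8 GbaAffx calls, 18 to 20 of the 25 GarAffx calls, and 66.1% to 73.3% of all calls. The GbaAffx median of -0.03 was 0.034 without a filter, 0.014 with quantile normalization, -0.079 with median centring, -0.328 with the hybridization controls set equal and -0.058 to 0.028 with 1 array left out. The GarAffx median of 0.02 was -0.087 with a filter above the negative controls, -0.273 with the hybridization controls set equal and -0.0318 to 0.006 with 1 array left out. Shifts of all values alike follow from how the scales are built, and other causes were not tested. No called member changed direction in a setting run. Other filters, variance models and thresholds leave the differences as they are, so they could turn none. The shift of 0.29 with the hybridization controls set equal was smaller than the smallest called positive difference, 0.34, and could turn none either. Leaving out the 5 GbaAffx members with far-apart VH8-4602 arrays, an alternative chosen after seeing the data, left 7 calls. Signs turned in members that were not called, namely 4 GbaAffx and 12 GarAffx members once the hybridization controls were equal, 2 GbaAffx and 2 GarAffx under median centring, 1 GbaAffx under quantile normalization, and up to 5 GbaAffx and 3 GarAffx with 1 array left out. Of the members named, with median centring GbaAffx.190.1.S1_x_at was -0.028 and GbaAffx.2.1.S1_x_at -0.014; with the hybridization controls set equal GbaAffx.190.1.S1_x_at was -0.277, GbaAffx.2.1.S1_s_at -0.0799, GbaAffx.2.1.S1_x_at -0.263 and GbaAffx.6.1.S1_s_at -0.155. With 1 array left out, GbaAffx.159.1.S1_x_at ranged from -0.443 to 0.0724, GbaAffx.2.1.S1_at from -0.23 to 0.163, GbaAffx.2.1.S1_x_at from -0.034 to 0.0965 and GbaAffx.201.1.S1_s_at from -0.037 to 2.47. In every fit run, GbaAffx.197.1.S1_s_at, GarAffx.11010.1.S1_s_at, GarAffx.13776.1.S1_s_at and GarAffx.24201.1.A1_s_at were called.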
